A study of Homo sapiens with 3 samples.

Results

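The 10 genes described here encode SMAD proteins and receptors of the TGF-beta family: SMAD1, SMAD2, SMAD3, SMAD4, SMAD5, SMAD6, SMAD7, TGFBR1, TGFBR2 and BMPR2. They were chosen by name, out of 58998 RefSeq genes placed on chromosomes, 19879 of them protein-coding. RNA tied to HaloTag fusion proteins was sequenced by GoldCLIP in HCT116, an established human colorectal carcinoma line grown in serum-containing medium. The HaloTag binds its beads covalently, which allows denaturing washes and makes a gel unnecessary. The series held 3 samples of 1 library each: HaloTag alone, RPL22-HaloTag or RPL22L1-HaloTag in the cells. The ribosomal protein RPL22 belongs to the large subunit, and RPL22L1 is encoded by a paralogous gene. The HaloTag library was not analysed here, so no value below stands beside a background from cells with the tag alone. Neither the promoter that drives each fusion, nor the state of the untagged RPL22 and RPL22L1 genes, nor the number of clones is given in the labels.

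TGF-beta family ligands bind paired receptor kinases at the cell surface. A type II receptor such as TGFBR2 or BMPR2 phosphorylates a type I receptor such as TGFBR1, which in turn phosphorylates a receptor-activated SMAD. SMAD2 and SMAD3 carry TGF-beta and activin signals, while SMAD1 and SMAD5 carry those of bone morphogenetic proteins (BMPs). SMAD4 joins either kind on its way to the nucleus, and SMAD6 and SMAD7 inhibit the pathway. In the colon epithelium this signalling restrains growth, and the pathway is often mutated in colorectal cancer. HCT116 is a mismatch-repair-deficient line known for a frameshift in TGFBR2, so its response to TGF-beta is limited. RPL22 and RPL22L1 were reported to act in opposite ways on the splicing of smad2 pre-mRNA in zebrafish.

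Each library was represented by its deposited list of peaks, 154000 for RPL22 and 254413 for RPL22L1. A peak is a stretch where reads piled up, and its summit is the highest position. A peak was counted for a gene when its summit lay between the annotated start and end of the gene. Peaks 30 bases wide with the summit offset at 15 are called flat, because they have the smallest width and a summit in the exact middle. Other peaks, called not flat, were 35.1% of all RPL22 peaks and 22.1% of all RPL22L1 peaks. A peak that shared at least 1 base with a peak of the other list is called shared. Among peaks in all protein-coding genes, 19.1% of RPL22 peaks and 11.4% of RPL22L1 peaks were shared. Colon epithelial markers held summits for 7 of 9 genes in each list, with CDX1 and LGALS4 at 0, while blood markers did for 1 of 4 and fibroblast markers for 1 of 4. There were no replicates, so differences between the lists have no test, and the values describe these libraries only. Intervals are exact 95% intervals, Clopper-Pearson for shares and Poisson for densities, and cover counting error only. RNA abundance was not measured by these files, exons and introns were not used here, and the sequencing depth is unknown.

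The question put first was how many peaks the SMAD and receptor genes held. The 10 genes, 876.093 kb in all, held 209 RPL22 summits and 333 RPL22L1 summits. RPL22 summits were found in 9 of the 10 genes and RPL22L1 summits in all 10; over protein-coding genes the share was 68.8% and 70.3%. The median density over the 10 genes was 0.246 summits per kb for RPL22 and 0.331 for RPL22L1. Over all protein-coding genes the medians were 0.102 and 0.132, and over those with at least 1 summit 0.205 and 0.298. Summits were most frequent per kb in SMAD3, SMAD4 and SMAD5 in both lists, and fewest in SMAD6 and SMAD7, the genes of the inhibitory SMADs. Less binding and less RNA of a gene cannot be told apart by summit numbers.

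**Figure D1:**
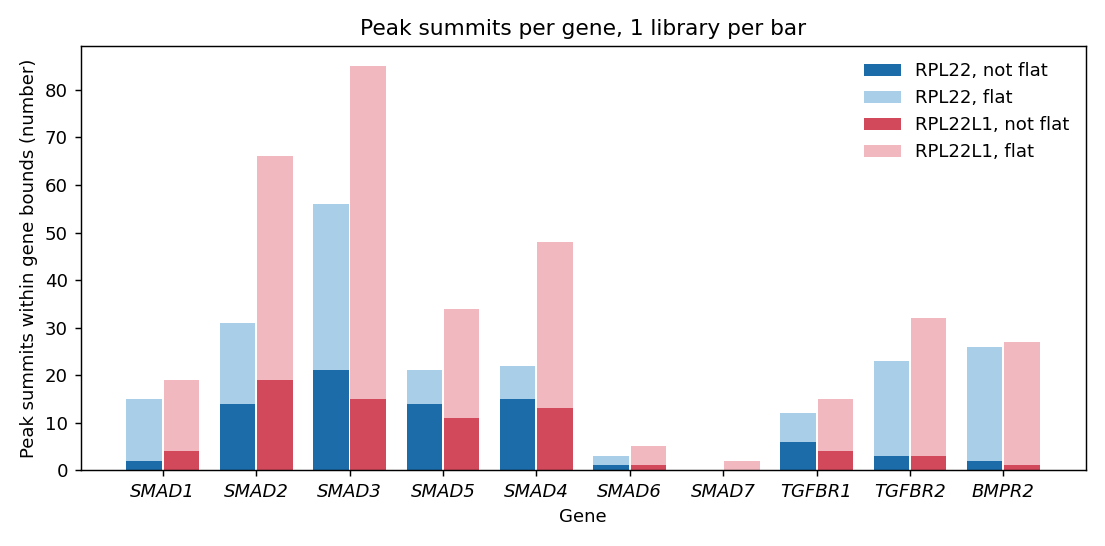
Number of peak summits within the bounds of each gene (vertical axis), with the RPL22 list in blue and the RPL22L1 list in red, dark for peaks that were not flat and light for flat ones. SMAD3 held most summits in both lists, 56 and 85, and the taller RPL22L1 bars consist mainly of flat peaks.

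Per kb of gene, the RPL22 list ran from SMAD3 at 0.432 (interval 0.326 to 0.561), SMAD5 at 0.421 and SMAD4 at 0.401, down to BMPR2 at 0.136 (0.0887 to 0.199) and SMAD6 at 0.0372 (0.00767 to 0.109). Between these lay TGFBR2 at 0.262 per kb, SMAD2 at 0.254, TGFBR1 at 0.237 and SMAD1 at 0.191, and SMAD7 had no RPL22 summit. In the RPL22L1 list the density was highest in SMAD4 at 0.875 (0.645 to 1.16), followed by SMAD5 at 0.682, SMAD3 at 0.656 and SMAD2 at 0.541. TGFBR2 at 0.365, TGFBR1 at 0.297, SMAD1 at 0.242, BMPR2 at 0.141, SMAD7 at 0.0643 and SMAD6 at 0.0620 per kb came after. No 2 neighbours in either order were apart by more than their Poisson intervals. The ends of the order were apart: SMAD3, SMAD4 and SMAD5 lay above BMPR2 and SMAD6 beyond their intervals in both lists.

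Summit number follows gene length, so each gene was also set beside protein-coding genes of 0.5 to 2 times its length. SMAD3 held more RPL22 summits than 99.2% of 4066 such genes and more RPL22L1 summits than 96.5%. SMAD4, SMAD5 and SMAD2 exceeded 92.4%, 92.9% and 89.5% in the RPL22 list, and 94.5%, 88.2% and 92.5% in the RPL22L1 list. The receptor genes stood lower, TGFBR2 above 84.7% and 75.8%, BMPR2 above 74.1% and 60.5%, and TGFBR1 above 69.9% and 60.8%. SMAD6 exceeded 27.3% and 31.2%. When flat peaks were left out, SMAD2, SMAD3, SMAD4 and SMAD5 exceeded between 88.5% and 97.4% of genes of like length. TGFBR2 then stood at 49.3% (RPL22) and 56.5% (RPL22L1), and BMPR2 at 44.5% and 37.8%, lower than with all peaks. SMAD1 exceeded 68.5% and 59.3% with all peaks, and without flat peaks 41.9% and 62.4%, lower for RPL22 and higher for RPL22L1.

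**Figure D2:**
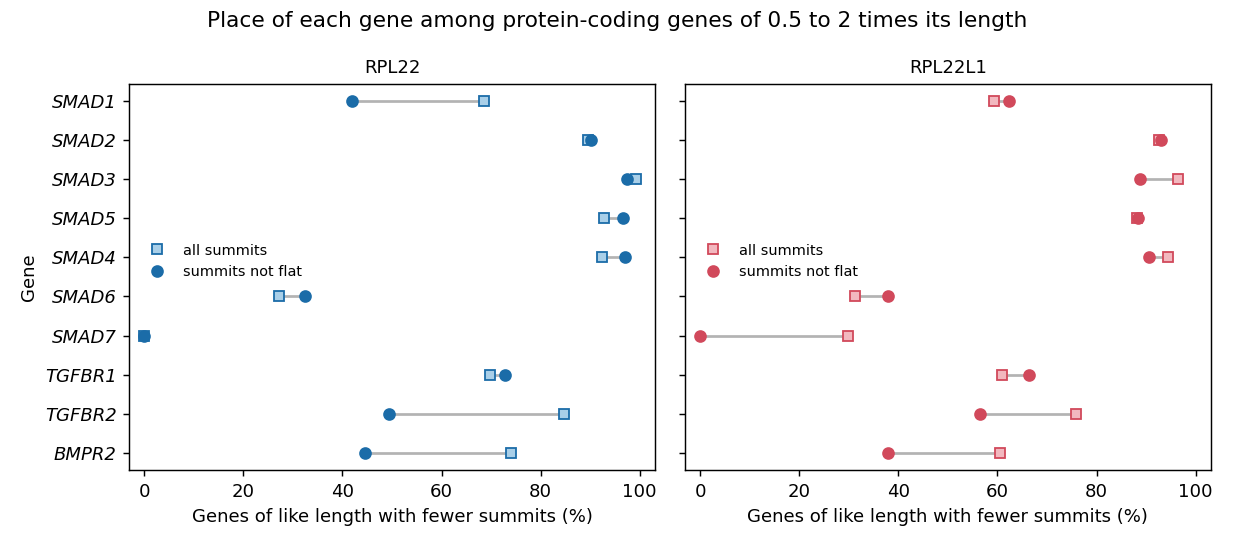
Share of protein-coding genes of 0.5 to 2 times the length that held fewer summits (horizontal axis, percent), by gene; squares count all summits, circles those that were not flat, and the grey line joins them. SMAD2 to SMAD5 sit near the right edge by both counts, whereas TGFBR2 and BMPR2 move left by circles, in the RPL22 list to 49.3% and 44.5%.

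SMAD2 and SMAD3, the receptor-activated SMADs of TGF-beta and activin, are described first. SMAD2 (chr18:47808957-47930872, GRCh38, minus strand) held 31 RPL22 summits, of which 14 were not flat, and 66 RPL22L1 summits, of which 19 were not flat. In each list 8 of these peaks were shared, 25.8% (11.9% to 44.6%) for RPL22 and 12.1% (5.38% to 22.5%) for RPL22L1. At 4 of the 8 shared places the highest peak was not flat in both lists. The highest RPL22L1 peak of SMAD2, score 585, lay at such a place, chr18:47896560-47896656, where the RPL22 peak scored 144 and the summits were 3 bases apart. The highest RPL22 peak, score 293, lay at chr18:47845328-47845440, where the RPL22L1 peak scored 359 and the summits were 4 bases apart. Thus the top SMAD2 peak of each list coincided with a peak of the other. Scores are ranked within a list only, because their scales need not match between lists.

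A second cluster of SMAD2 lay near 67% of the way from its start to its end. There chr18:47848536-47848604 held peaks with scores 211 (RPL22) and 295 (RPL22L1), and chr18:47848639-47848701 held 123 and 226. Both lists also had SMAD2 peaks of high rank that overlapped no peak of the other. For RPL22 these included chr18:47896757-47896801, score 166, just beyond the shared place of the highest RPL22L1 peak. Another was chr18:47841864-47841938, score 151, with an RPL22L1 peak of score 205 within 100 bases, chr18:47841978-47842016. For RPL22L1 these included chr18:47864508-47864546, score 331, and chr18:47848869-47848929, score 359, beside the second cluster. The latter had an RPL22 peak of score 45 within 100 bases, chr18:47848965-47848994. Few SMAD2 peaks lay near the end of the gene: of those not flat, 1 of 14 RPL22 and 0 of 19 RPL22L1 summits were in its last 10%.

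SMAD3 (chr15:67065602-67195169, plus strand) held 56 RPL22 summits, 21 not flat, and 85 RPL22L1 summits, 15 not flat. Its highest RPL22 peak, chr15:67165289-67165369 with score 519, ranked 1470 in the list. It was the only peak of the 10 genes in the top 1% of either list, and it was not shared, although a flat RPL22L1 peak of score 104, chr15:67165377-67165406, lay within 100 bases. The highest RPL22L1 peak of SMAD3, score 515, was flat and also not shared. Shared peaks numbered 7 in each list, 12.5% (5.18% to 24.1%) and 8.24% (3.38% to 16.2%). At only 2 of the 7 places was the highest peak not flat in both lists, and both were near the end of the gene. At chr15:67193412-67193459 the scores were 116 (RPL22) and 324 (RPL22L1), with summits 2 bases apart, and at chr15:67193788-67193845 they were 214 and 78, with summits 6 bases apart. A further shared place, chr15:67188799-67188855, paired an RPL22 peak of score 264 with a flat RPL22L1 peak of score 61. In all, 6 of 21 RPL22 and 7 of 15 RPL22L1 summits of SMAD3 that were not flat lay in the last 10% of the gene.

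Sequence could be read for the few peaks that fell within promoter windows, the stretch from 250 bases before to 50 bases after an annotated start (RefSeq, GRCh38.p14). All 10 genes had windows, 29 in all. A window held an RPL22 peak at 1 of 29 starts and an RPL22L1 peak at 2 of 29, against 6.89% and 5.68% of all 35116 windows. Both SMAD3 examples lay at internal starts of that gene, and they are shown because they are the only SMAD peaks whose bases the reference held. Each was flat, 30 bases wide and not shared. The peak is in capitals and neighbouring bases in lower case, 5′ to 3′ on the plus strand, with no lower-case base beyond the annotated start.
SMAD3, RPL22 peak chr15:67125497-67125526: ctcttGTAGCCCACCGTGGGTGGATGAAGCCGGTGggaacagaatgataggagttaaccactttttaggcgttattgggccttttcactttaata
SMAD3, RPL22L1 peak chr15:67166504-67166533: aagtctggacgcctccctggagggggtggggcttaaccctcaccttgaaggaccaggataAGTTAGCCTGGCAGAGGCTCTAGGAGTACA
The RPL22 peak, score 33, lay at positions -245 to -216 relative to its start, whose first base is counted as 0, and was 66.7% G or C, in a window of 47% G or C. The RPL22L1 peak, score 54, lay at positions -27 to 2 and was 53.3% G or C, the same as its window.

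SMAD1 and SMAD5, the receptor-activated SMADs of BMP signalling, differed from each other. SMAD1 (chr4:145480770-145559176, plus strand) held 15 RPL22 and 19 RPL22L1 summits, of which 2 and 4 were not flat. Its highest RPL22 score was only 58, rank 38152. Its RPL22L1 peaks reached 471 and 465, both in the top 5% of that list and both near the end of the gene, at chr4:145558692-145558780 and chr4:145557994-145558070. The first of these touched a flat RPL22 peak of score 16, the only shared place of SMAD1. Thus strong SMAD1 peaks were found in the RPL22L1 list, and in the RPL22 list none passed its top 24.8%.

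SMAD5 (chr5:136132845-136182733, plus strand) held 21 RPL22 summits, 14 not flat, and 34 RPL22L1 summits, 11 not flat. With all peaks of the whole lists, it had the largest shared share of the 10 genes. Of its RPL22 peaks 10 of 21 were shared, 47.6% (25.7% to 70.2%), and of its RPL22L1 peaks 9 of 34, 26.5% (12.9% to 44.4%). Both lower bounds lay above the 19.1% and 11.4% of all peaks in protein-coding genes. SMAD5 was picked here as the highest of the 10 genes, for which the intervals make no allowance. The mix of flat and other peaks was not matched in this comparison. Of SMAD5 peaks 66.7% and 32.4% were not flat, against 38.5% and 23.6% over protein-coding genes. Peaks that were not flat were shared more often there, 39.7% against 6.12% of flat ones for RPL22 and 26.5% against 6.80% for RPL22L1. Among genes with 0.5 to 2 times as many summits, 94.4% had fewer shared RPL22 peaks than SMAD5 and 94.3% fewer shared RPL22L1 peaks. The place of SMAD5 above SMAD4 depended on the setting. In lists of equal size 7 of 21 RPL22 peaks of SMAD5 were shared, against 8 of 22 in SMAD4. With flat peaks left out these were 5 of 14 and 6 of 15. For RPL22L1 SMAD5 stayed above, at 6 of 21 against 6 of 27 and 4 of 11 against 4 of 13. With an overlap of at least 50% of both peaks required, only 1 SMAD5 peak of each list was shared, against 4 of each in SMAD4. Some of the other SMAD5 pairs were a narrow peak inside a wider one. Others overlapped only in part, as at chr5:136153744-136153855, where the highest summits were 92 bases apart. The shared places were spread over the gene: chr5:136147820-136147925 (scores 87 and 385), chr5:136160899-136161050 (60 and 243) and chr5:136172498-136172656 (217 and 247, summits 1 base apart) are examples. The top peak of each list overlapped no peak of the other. The highest RPL22L1 peak, score 816, rank 3291, lay at chr5:136182660-136182715, its summit 45 bases before the annotated end. The highest RPL22 peak, score 275, lay at chr5:136153649-136153734, before the middle of the gene, with a flat RPL22L1 peak of score 205, chr5:136153744-136153773, within 100 bases.

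**Figure D3:**
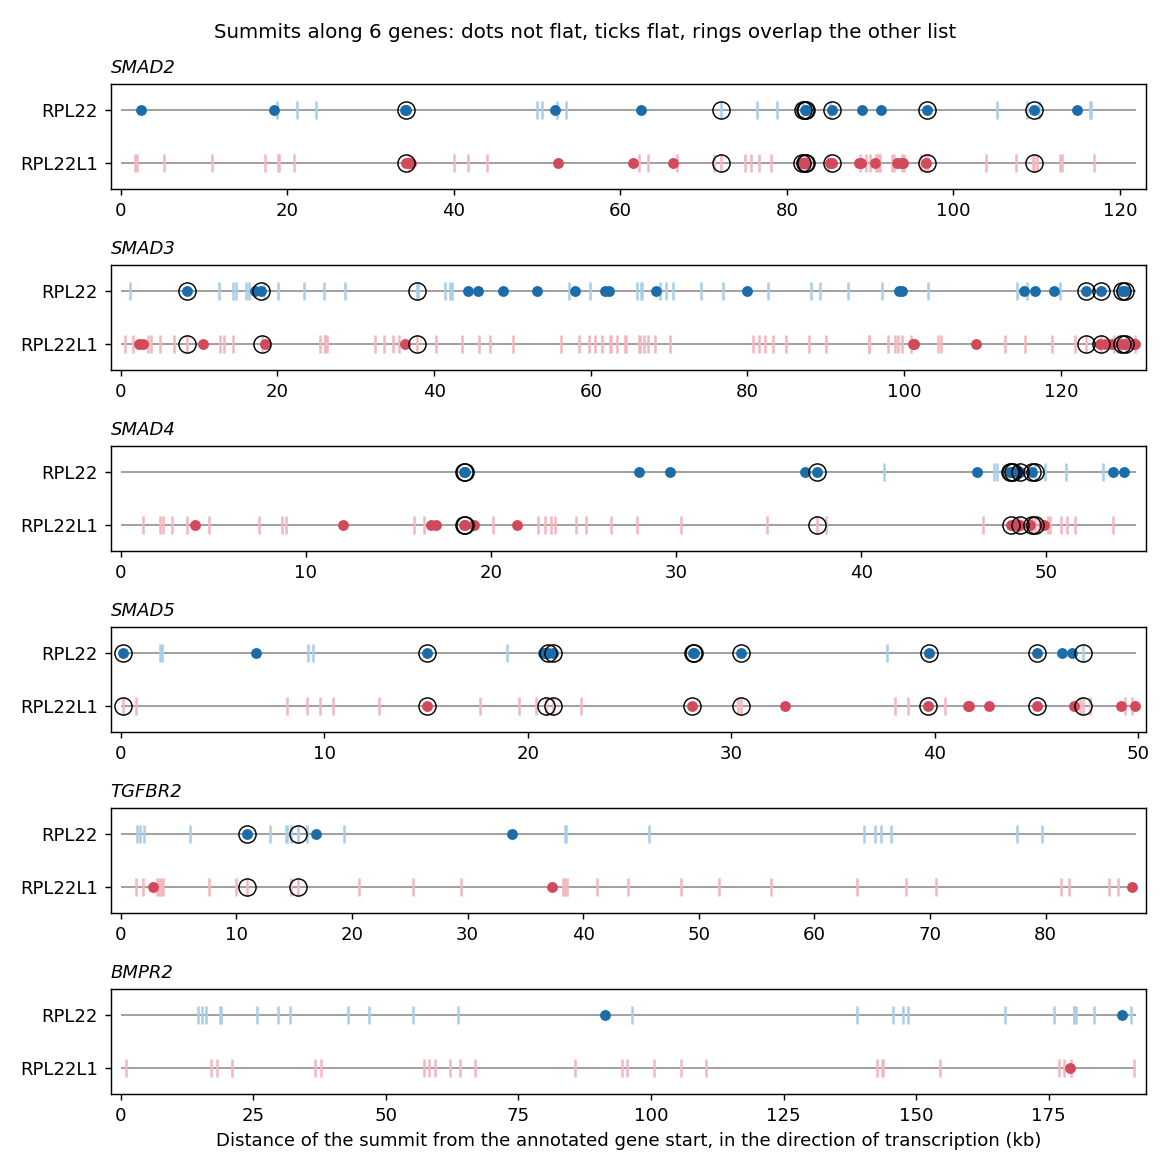
Summits along 6 genes by distance from the annotated start in the direction of transcription (horizontal axis, kb); filled dots are peaks that were not flat, ticks are flat peaks, and rings mark peaks that overlap the other list. Rings occur along SMAD2, SMAD4 and SMAD5, 4 of the 7 in SMAD3 lie near its end, and BMPR2 has none.

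SMAD4, the common partner, had the densest RPL22L1 peaks of the 10 genes. SMAD4 (chr18:51030213-51085042, plus strand) held 22 RPL22 summits and 48 RPL22L1 summits. Of the RPL22 summits 15 were not flat, 68.2% (45.1% to 86.1%), and of the RPL22L1 summits 13, 27.1% (15.3% to 41.8%). Over all peaks in protein-coding genes the shares not flat were 38.5% and 23.6%. Shared peaks made up 9 of 22 for RPL22, 40.9% (20.7% to 63.6%), and 7 of 48 for RPL22L1, 14.6% (6.07% to 27.8%). They formed 7 places, in 4 of which the highest peak was not flat in both lists.

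In both lists the 2 highest peaks of SMAD4 lay near 34% and 88% of its length, while other peaks were spread along the gene. Near 88% was chr18:51078261-51078458, where 3 RPL22 peaks, the highest with score 220, met 1 RPL22L1 peak with score 840. That RPL22L1 peak ranked 3118, the best rank of the 10 genes in its list. Near 34% was chr18:51048711-51048761, with scores 286 (RPL22) and 244 (RPL22L1), and chr18:51048807-51048872, with 38 and 598. The first was the highest RPL22 peak of SMAD4 and the second, right beside it, its next RPL22L1 peak after the 1 with score 840. At this pair of neighbouring places the order of the peaks by score therefore differed between the lists.

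SMAD6 and SMAD7, the inhibitory SMADs, held few peaks and no shared one. SMAD6 (chr15:66702236-66782849, plus strand) had 3 RPL22 and 5 RPL22L1 summits, 1 of each not flat. Of these, 4 of the 5 RPL22L1 summits and 2 of the 3 RPL22 summits lay in the first 10% of the gene. SMAD7 (chr18:48919853-48950965, minus strand) had 0 RPL22 and 2 RPL22L1 summits, both flat, with scores 224 and 150.

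The type II receptor genes carried mostly flat peaks, and the type I receptor gene less so. TGFBR1 (chr9:99103647-99154192, plus strand) held 12 RPL22 summits, 6 not flat, and 15 RPL22L1 summits, 4 not flat. It had 2 shared places. At chr9:99149258-99149299 the scores were 33 (RPL22) and 349 (RPL22L1), with summits 2 bases apart and neither peak flat. At chr9:99146517-99146617 the highest RPL22 peak, score 143, met a flat RPL22L1 peak of score 134. The highest RPL22L1 peak, score 385 at chr9:99142539-99142628, was not shared.

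TGFBR2 (chr3:30606356-30694142, plus strand), the type II receptor gene of TGF-beta, held 23 RPL22 and 32 RPL22L1 summits, but only 3 of each were not flat. The share not flat had an interval of 2.78% to 33.6% for RPL22, below the 38.5% over protein-coding genes, and of 1.98% to 25.0% for RPL22L1, which includes the 23.6% there. Its highest peaks scored 87, rank 23211, and 373, rank 16511. It had 2 shared places, chr3:30617253-30617303 (scores 58 and 81) and chr3:30621648-30621706 (33 and 98), and at neither were both peaks other than flat.

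BMPR2 (chr2:202376327-202567749, plus strand), the BMP type II receptor gene and the longest of the 10, held 26 RPL22 and 27 RPL22L1 summits with no overlap at all, also when peaks within 100 bases of each other were counted as shared. With 0 of 26 and 0 of 27 shared, the exact intervals reach 13.2% and 12.8%. The first lies below the 19.1% over protein-coding genes, and the second includes the 11.4% there. Most BMPR2 peaks were flat, and flat peaks over protein-coding genes were shared at only 6.12% and 6.80%, inside both intervals. Of protein-coding genes with at least 20 summits of a kind, 4.09% (RPL22) and 5.53% (RPL22L1) likewise had no shared peak. Of those with 0.5 to 2 times as many summits as BMPR2, 8.84% and 10.4% had none. Only 2 of 26 RPL22 peaks, 7.69% (0.946% to 25.1%), and 1 of 27 RPL22L1 peaks, 3.70% (0.0937% to 19.0%), were not flat. Both upper bounds lay below the 38.5% and 23.6% over protein-coding genes. BMPR2 also had the third promoter window with a peak, an RPL22L1 peak of score 81 that was flat, not shared and outside the gene bounds. It lay at positions -139 to -110 relative to the annotated start and was 83.3% G or C, in a window of 76.7%. It is printed on the plus strand with the peak in capitals.
BMPR2, RPL22L1 peak chr2:202376188-202376217: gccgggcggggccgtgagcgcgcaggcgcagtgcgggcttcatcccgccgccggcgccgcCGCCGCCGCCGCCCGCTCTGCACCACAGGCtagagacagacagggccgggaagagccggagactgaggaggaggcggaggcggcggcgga
The repeated gcc triplets at its left edge run from the flank into the peak.

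The overlap between lists was then taken over the 10 genes together. Shared peaks numbered 39 of 209 for RPL22, 18.7% (13.6% to 24.6%), and 36 of 333 for RPL22L1, 10.8% (7.69% to 14.7%). Both shares were within counting error of the 19.1% and 11.4% of protein-coding genes. In each list 7 of the genes had a shared peak, and SMAD6, SMAD7 and BMPR2 had none; of protein-coding genes with a summit, 58.5% and 57.2% had one. The shared peaks formed 36 places, with a median distance of 12 bases between the highest summits of the lists and at most 20 bases in 26 of them. Peaks that were not flat were shared more often: 32 of 78 for RPL22, 41.0% (30.01% to 52.7%), against 7 of 131 flat ones, 5.34% (2.18% to 10.7%). For RPL22L1 the numbers were 17 of 71, 23.9% (14.6% to 35.5%), against 19 of 262, 7.25% (4.42% to 11.1%). The same contrast was present over protein-coding genes, at 39.7% against 6.12% and 26.5% against 6.80%. Flat peaks have the smallest width, and the part of peak width in this contrast was not tested.

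**Figure D4:**
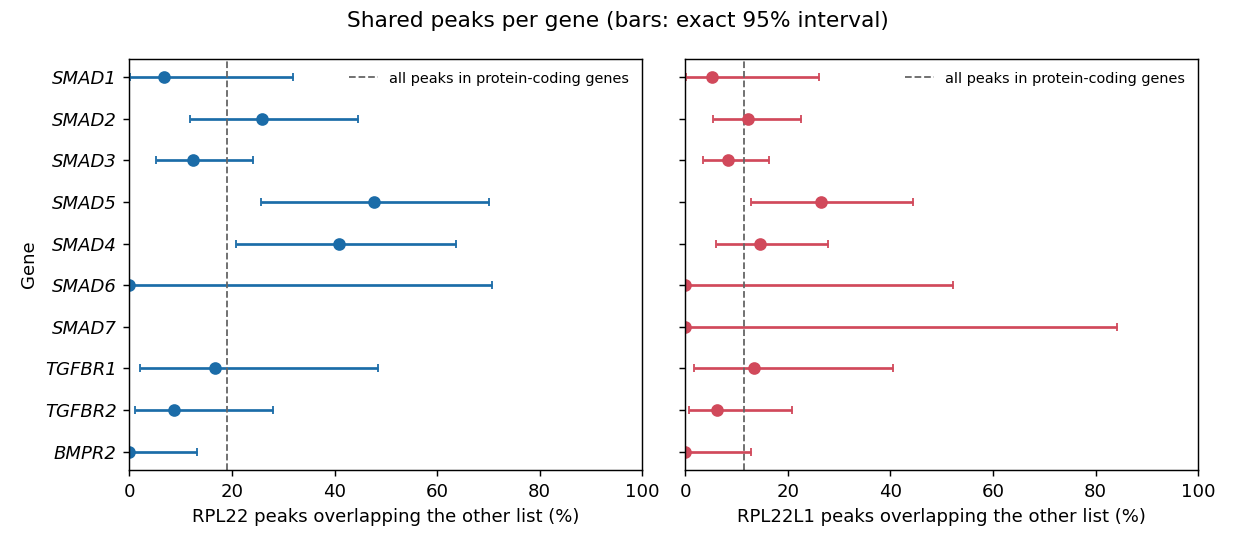
Share of the peaks of each gene that overlapped a peak of the other list (horizontal axis, percent, with exact 95% intervals); the dashed line is the share over all peaks in protein-coding genes. The whole interval of SMAD5 lies to the right of the line in both panels, and that of SMAD4 in the RPL22 panel. The points of some other genes lie to the right with intervals that cross the line. BMPR2 is at 0 in both.

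Peaks with higher scores were shared more often in the RPL22 list. Below the list median 4 of 80 RPL22 peaks were shared, from the median up to the top 5% 28 of 119, and in the top 5% 7 of 10. Over protein-coding genes the shares in these ranges were 7.32%, 22.5% and 66.9%. In the RPL22L1 list 16 of 182, 16 of 139 and 4 of 12 were shared, against 6.70%, 12.98% and 44.5%. The 10 RPL22 peaks in the top 5% were 4.78% (2.32% to 8.62%) of the 209 in the 10 genes. For RPL22L1 the 12 were 3.60% (1.88% to 6.21%) of 333. Both shares are near the 5% that the cutoff sets over a whole list. The 10 RPL22 peaks lay in SMAD2, SMAD3, SMAD4 and SMAD5 alone. Of the 12 RPL22L1 peaks, 10 lay in those genes and 2 in SMAD1. Those genes also held most summits of any score in both lists. Many flat peaks held the same few scores: 82 of 131 flat RPL22 peaks scored 21, 33 or 45, and 40 of 262 flat RPL22L1 peaks scored 65, 98 or 115.

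Where in the genes the peaks lay was compared next. In the last 10% of the 10 genes were 16 of 78 RPL22 summits that were not flat, 20.5% (12.2% to 31.2%), and 19 of 71 RPL22L1 summits, 26.8% (16.9% to 38.6%). For comparison, only the 15842 protein-coding genes with a known strand could be used. The shares over those genes were 19.0% and 21.7%, inside both intervals. In the first 10% the RPL22 share was 3 of 78, 3.85% (0.800% to 10.8%), against 10.8% over those genes. The RPL22L1 share there was 6 of 71, 8.45%, against 7.78%. Antisense long non-coding RNA genes overlap some SMAD genes, and peaks carry no strand, so their reads cannot be told apart from those of the SMAD gene. SMAD1-AS2 shared 2 RPL22 and 1 RPL22L1 summits with SMAD1, SMAD1-AS1 shared 1 and 0, SMAD3-AS1 shared 1 and 1 with SMAD3, and SMAD5-AS1 shared 3 and 2 with SMAD5.

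The last comparison of the 10 genes asked whether any held more summits in one list than in the other. The RPL22L1 list was longer, so it was first reduced to its 154000 highest scores. The log2 ratio of RPL22L1 summits plus 1 over RPL22 summits plus 1 was then taken for genes with at least 10 summits, and called when past 1 in either direction. By this rule 0 of 8 SMAD and receptor genes were called, against 15.1% of 8620 genes. SMAD2 had 31 RPL22 and 34 RPL22L1 summits (log2 ratio 0.13), SMAD4 22 and 27 (0.28) and SMAD5 21 and 21 (0.00). SMAD3 had 56 and 49 (-0.19), SMAD1 15 and 13 (-0.19) and TGFBR1 12 and 11 (-0.12). The type II receptor genes had the lowest ratios, TGFBR2 with 23 and 14 (-0.68) and BMPR2 with 26 and 15 (-0.75). These low ratios depended on the setting. For TGFBR2 the ratio was 0.46 in the whole lists and 0.26 at or above the median score. For BMPR2 it was 0.05 and -0.28. SMAD6 and SMAD7 had too few summits for the rule. The median was -0.15 over the 8 genes and 0.00 over all genes.

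Peaks that were not flat were nearly equal in number in the whole lists, so they were compared without that reduction. Again 0 of 5 genes were called, against 22.3% of 3909 genes, 14.8% toward RPL22L1 and 7.52% toward RPL22. Of these 5, SMAD2 was the one gene with more such RPL22L1 summits, 19 against 14 (log2 ratio 0.42). At equal size without flat peaks it had 13 RPL22L1 against 14 RPL22 summits (-0.10). SMAD1 also had more such RPL22L1 summits, 4 against 2, too few for the rule. In the whole lists the ratio was -0.19 for SMAD4, -0.32 for SMAD5, -0.46 for SMAD3 and -0.49 for TGFBR1. The median of -0.32 over these 5 genes stood beside 0.15 over all genes tested. The call depended on the setting for 3 genes. With whole lists and all peaks, SMAD2 (1.07) and SMAD4 (1.09) passed the limit toward RPL22L1, and with lists of equal size and no flat peaks SMAD3 passed it toward RPL22, at -1.29 with 21 against 8 summits.

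**Figure D5:**
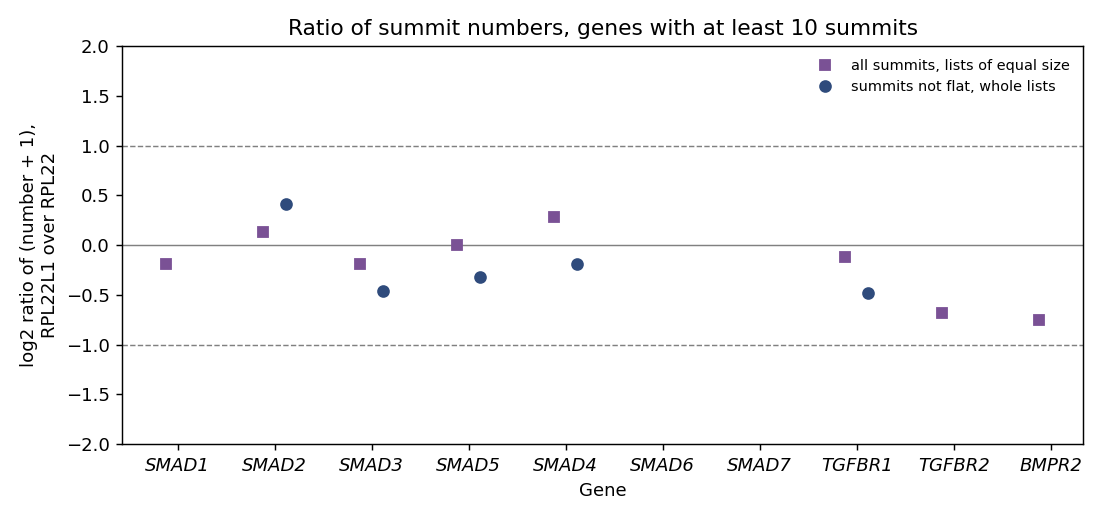
Log2 ratio of RPL22L1 over RPL22 summit number plus 1 (vertical axis) for genes with at least 10 summits; squares use all summits in lists of equal size, circles use summits that were not flat in the whole lists, and dashed lines mark the limit of 1. No gene passes either line, and BMPR2 is lowest at -0.75.

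The other genes of the pathway, 77 by a list drawn up by role, gave the setting. RPL22 summits were present in 63 of 77 and RPL22L1 summits in 65, numbering 687 and 1125. Of all protein-coding genes 68.8% and 70.3% held a summit. Shared peaks made up 18.5% and 11.4%, close to the SMAD and receptor genes. These shares were equally close to the 19.1% and 11.4% of all peaks in protein-coding genes. Of 35 genes with enough summits in lists of equal size, 0 were called toward RPL22L1 and 3 toward RPL22, against 6.37% and 8.75% over all genes. They were ACVR1B, a type I activin receptor gene, with 12 RPL22 and 2 RPL22L1 summits (log2 ratio -2.12), RGMB, a BMP co-receptor gene, with 14 and 4 (-1.58), and LTBP4, which encodes a binding protein of latent TGF-beta, with 18 and 8 (-1.08). In the whole lists ACVR1B had the same numbers, but RGMB had 14 and 11 and LTBP4 18 and 17, so their calls rest on the reduction to equal size. The median log2 ratio over the 35 genes was 0.00.

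By role, the other receptor genes had few shared peaks. Those 12 genes held 132 RPL22 and 141 RPL22L1 summits, of which only 3 and 3 were shared, 2.27% and 2.13%. Over all peaks in protein-coding genes 19.1% and 11.4% were shared, and over flat ones 6.12% and 6.80%. Of the summits of the 12 genes only 28 and 15 were not flat, a mix that the comparison did not match. ACVR2B, a type II activin receptor gene, was with RGMB the densest of these 12 genes, at 0.382 and 0.433 summits per kb. SMAD9 and the SMAD partners, 10 genes, held 169 and 310 summits, with 40 and 41 shared, 23.7% and 13.2%. Among these ZFYVE16, which encodes an endosomal SMAD-binding protein, had 24 and 60 summits with 10 and 10 shared, and SP1, a transcription factor gene, had 16 and 27 with 5 and 5. E2F4, a further transcription factor gene, had 4 and 9 and shared 0 and 0.

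The 13 negative regulators held 212 and 429 summits, with 47 and 47 shared, 22.2% and 10.96%. STRAP, whose product binds TGF-beta receptors, had 12 and 26 summits with 8 and 8 shared, and TOB1, an antiproliferative gene, had 11 and 11 with 4 and 5. The 16 ligand genes held 40 and 56 summits, the densest being GDF15 at 1.32 and 2.65 per kb and BMP4 at 0.699 and 0.978. The 13 extracellular regulators held 97 and 137 summits, including ITGAV, an integrin gene, with 35 and 67. LTBP3, a relative of LTBP4, had 11 and 11, and FSTL3, a follistatin-like gene, had 3 and 5. The 13 target genes held 37 and 52 summits, and the short genes JUNB and ID1 were densest, with 2.73 and 2.73 per kb and 2.45 and 3.27 per kb. Set side by side, the shared shares of SMAD partners and negative regulators lay near those of SMAD2, at 25.8% and 12.1%. They were also near the 19.1% and 11.4% of all peaks in protein-coding genes. Ligand genes shared 22.5% and 16.1%, extracellular regulators 17.5% and 12.4%, and target genes 29.7% and 21.2%. Those of the target genes were the highest of any role. The shared shares of the other receptor genes lay between BMPR2, at 0, and TGFBR2, at 8.70% and 6.25%.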

How the data were processed

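Both libraries with a fusion protein were used, by their deposited peak lists, and grouped by the genotype in the labels. Per the submitters' processing notes the build was hg38 and the tools were cutadapt 4.8, STAR 2.7.10a, UMI-tools 1.1.5 and MACS3 3.0.0a6, with no role or order stated. The control, thresholds, strand and treatment of reads with several matches are not given in the sources used here. Each deposited list had 10 columns, with 1 whole-number score per peak, the authors' own value, and the summit offset. Scores served to order peaks inside 1 list. Depth in reads is unknown.

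Summits, counted from 1, were placed within gene bounds of the RefSeq GRCh38.p14 table; a summit in overlapping genes counted for each. Equal-size lists kept the highest RPL22L1 scores down to 98, with ties taken by position. The log2 ratio used a pseudocount of 1 and was called past 1. With 1 library per group no test was run. The 10 genes, the pathway list and the settings were chosen with earlier results of these data known. All 10 genes are named, and of each pathway role at most the 2 densest genes in either list and any gene past the limit. Alternatives were a score limit at the list median, equal size, no flat peaks, merging, assignment to the shortest gene, other overlap rules and another pseudocount. The counting code, run with scipy 1.17.1, pandas 2.3.3, numpy 2.4.6 and Python 3.11.15, was tested on simulated data. Figures were drawn with matplotlib 3.10.9.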

Additional observations from a re-analysis of the deposited data

How the results depend on the processing

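No paired analysis was possible because each group had 1 library. Of 54 alternative values of the results over the 10 genes or the pathway list, 33 stayed within the limits set for a same value, 13 moved down and 8 up. Of 336 values of single genes 234 stayed, 78 moved down and 24 up, and 0 changed direction past the limit. For counts the limit was a factor of 1.5. The values that stayed include some that a setting could not change. Among these are all values with merging within 10 bases, and RPL22 summit numbers, densities and shares not flat at equal size. Values are given for RPL22 and then RPL22L1. At or above the median score, the summits were 129 and 151, the median per kb 0.129 and 0.169, and the share not flat 55.8% and 30.5%. With the longer list reduced to the size of the other, RPL22L1 had 191 summits, a median of 0.192 per kb and 27.2% not flat, and 12.4% of RPL22 peaks were shared. Without flat peaks, summits were 78 and 71, the median per kb 0.0745 and 0.0651, and 21.1% of RPL22L1 peaks were shared. With an overlap of at least 50% of both peaks 6.70% and 4.204% were shared, and with peaks within 100 bases counted as shared 33.0% and 22.2%. Genes called between the lists were 2 with whole lists and 1 with equal size and no flat peaks. Merging within 10 bases could change nothing, since the smallest gap was 31 bases; merging within 100 bases, chosen after seeing the data, gave 195 and 299 summits with 16.9% and 10.7% shared. Other alternatives chosen then were whole lists without flat peaks, ties kept or left out, and those of the share not flat, the ranks and the pathway list. Each smaller count under a filter follows from fewer peaks; other causes were not tested. The unknown number of reads limits every comparison of list length.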
